A study of Mus musculus with 6 samples.

Results

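The constitutive proteasome subunits are the genes of the standard proteasome, the protease that takes ubiquitin-tagged proteins apart in every cell. They were taken as all protein-coding genes of the Psma, Psmb, Psmc and Psmd series, without the immunoproteasome genes Psmb8, Psmb9 and Psmb10, which gave 36 of 21914 gene symbols in the table. The RNA came from flow-sorted dendritic cells (DC), the cells that present antigen to T cells, taken from germ-free C57BL/6 mice with a Rag knockout, which make no T or B lymphocytes of their own. There were 3 states in each of 2 tissues. Mice had received naive CD4 T cells 1 week earlier, or regulatory T cells (Treg) 1 week earlier, or were un-injected, and the tissues were peripheral lymph node (LN) and spleen (SPL). Each of the 6 groups is 1 library, so no difference between 2 libraries has a replicate check. All groups, the un-injected one included, carry the Rag knockout and the germ-free state. The labels do not state the sort gate, how many mice went into a library, or whether the tissues came from the same animals.

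The proteasome is a barrel, the 20S core, made of alpha rings that form its gates and beta rings that hold its cutting sites, with a 19S cap on its ends. The cap has a base of ATPases, which unfold a substrate and thread it into the core, and a lid that removes the ubiquitin chain. In dendritic cells its products feed MHC class I presentation, and interferon gamma lets the inducible subunits Psmb8, Psmb9 and Psmb10 take the places of the constitutive cutting subunits Psmb5, Psmb6 and Psmb7.

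The levels are FPKM, which correct fragments for the length of the gene and the size of the library, and 34 of the 36 subunits reached 1 FPKM in at least 2 libraries. The other two are forms of particular tissues. Psma8, the alpha subunit of the testis, had 0.881, 0.615 and 0 FPKM in the naive, Treg and un-injected lymph node libraries, and 0.332, 0.348 and 1.98 FPKM in the naive, Treg and un-injected spleen libraries. Psmb11, the catalytic subunit of the thymus, is listed at 0 in all 6 libraries. Unless stated otherwise, counts and medians below are over these 34 subunits.

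On the deposited scale, most subunits were highest after naive T cells in the lymph node and highest in the un-injected library in the spleen (26 of 34 subunits had both, against 17.6% of all genes tested), and the Treg library was low in both tissues. With libraries set to a common sum of FPKM, 3 of 34 had both, against 6.79% of all genes. Higher values after naive T cells than after Treg held on a second scale too, whereas the 2 spleen comparisons with un-injected and the lymph node comparison of Treg with un-injected depended on the scale, as given beside each. The median subunit in lymph node had 115 FPKM in the naive, 71.2 FPKM in the Treg and 88.3 FPKM in the un-injected library. In the spleen the median subunit had 89.7 FPKM in the naive, 79.2 FPKM in the Treg and 101 FPKM in the un-injected library. As a share of all FPKM in a library, the 36 subunits made up 0.836%, 0.546% and 0.525% in the naive, Treg and un-injected lymph node, and 0.651%, 0.532% and 0.599% in the naive, Treg and un-injected spleen. No subunit passed the test across libraries in any comparison, as given further on, so these orders describe 6 libraries.

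**Figure D1:**
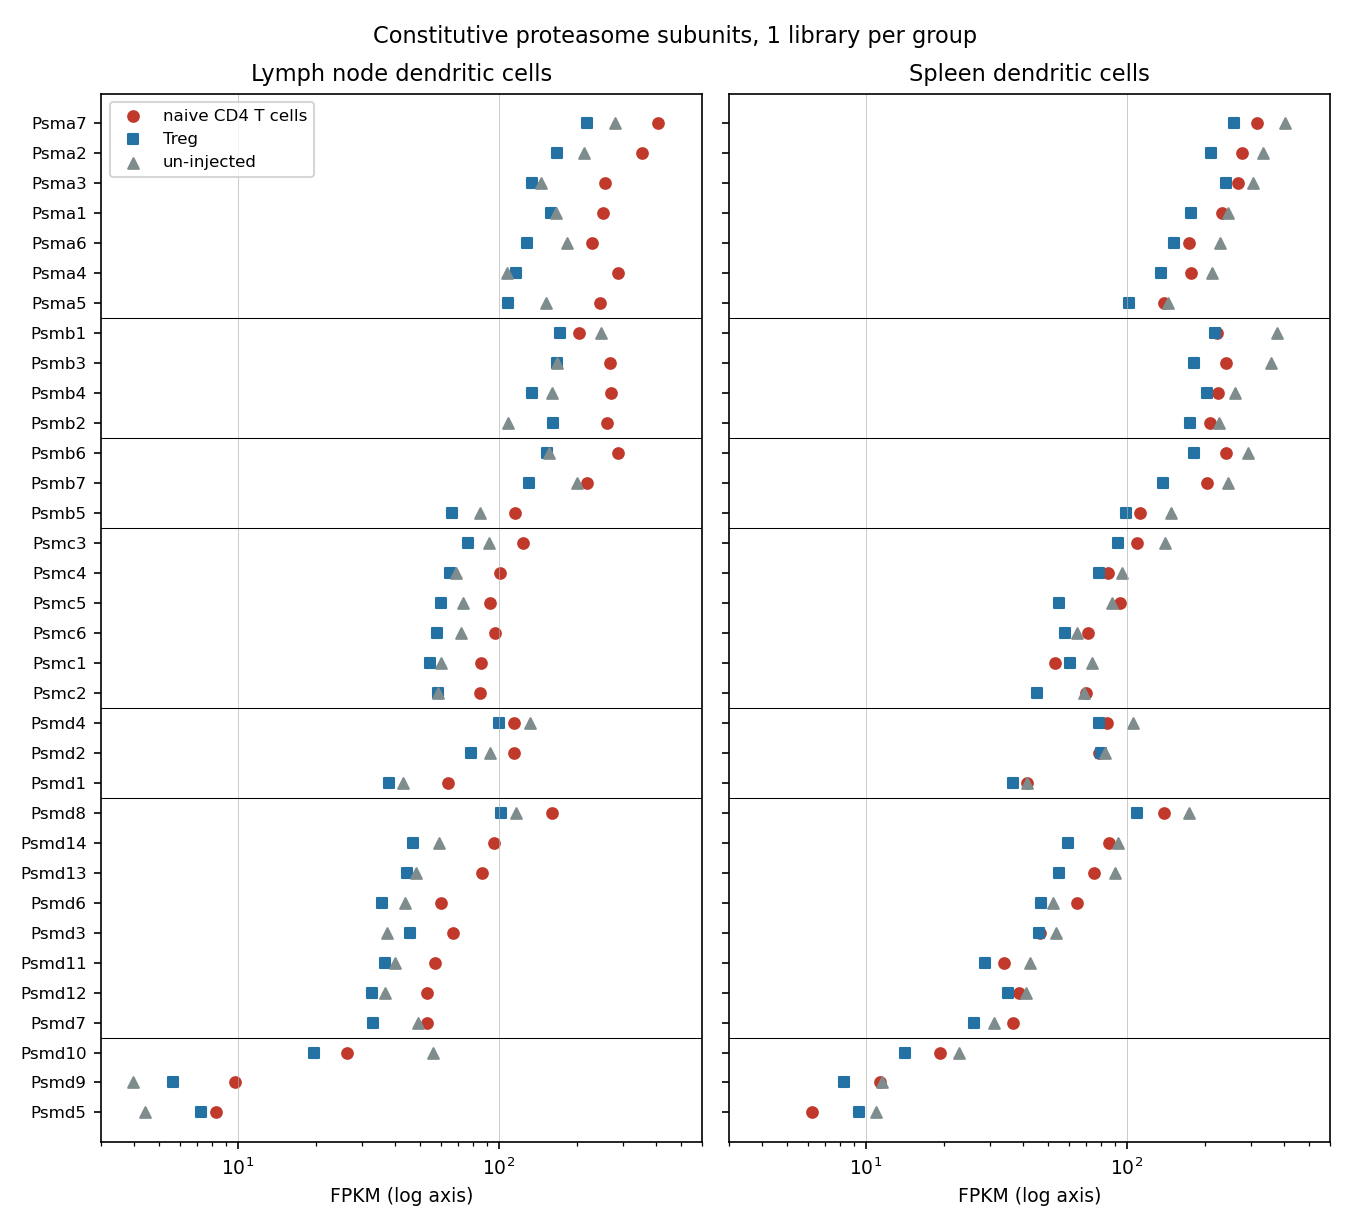
FPKM (log axis) of each of the 34 subunits in the lymph node (left) and spleen (right) libraries; 1 symbol is 1 library, coloured by state, and horizontal lines separate the alpha ring, structural beta, catalytic beta, ATPase, base, lid and chaperone genes from top to bottom. In the lymph node the naive symbol lies right of the Treg symbol for all 34 subunits, and in the spleen the Treg symbol lies left of the un-injected symbol for all 34 (21 of 34 with libraries set to a common sum).

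Core subunits had higher levels than cap subunits. In every library the median of the 14 core subunits was above that of the 17 cap subunits other than chaperones, by 2.98, 2.62 and 2.76 times in the naive, Treg and un-injected lymph node and by 3.13, 3.25 and 3.43 times in the naive, Treg and un-injected spleen (FPKM, per length). In the alpha ring the highest mean over the libraries was that of Psma7, at 313 FPKM, and the lowest that of Psma5, at 148 FPKM. Among the structural beta subunits, which shape the ring without cutting, the mean lay between 190.2 FPKM (Psmb2) and 239.6 FPKM (Psmb1). Among the ATPases it lay between 64.4 FPKM (Psmc2) and 106 FPKM (Psmc3). In the rest of the base, which holds ubiquitin receptors, the highest mean was 103 FPKM for the ubiquitin receptor Psmd4 and the lowest 44.1 FPKM for the scaffold Psmd1. Lid subunits ranged between 38.2 FPKM (Psmd7) and 134 FPKM (Psmd8). The 3 chaperones that help to assemble the base and leave before the particle is complete were the lowest, with means between 7.76 FPKM (Psmd5) and 26.3 FPKM (Psmd10).

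On the deposited scale the 3 constitutive cutting subunits followed the same order of states. Psmb5, which cuts after hydrophobic residues, had 116, 66.4 and 84.5 FPKM in the naive, Treg and un-injected lymph node, and 112, 99.4 and 147 FPKM in the naive, Treg and un-injected spleen. Psmb6, which cuts after acidic residues, had 286, 153 and 155 FPKM in the naive, Treg and un-injected lymph node, and 241, 182 and 290.4 FPKM in the naive, Treg and un-injected spleen. Psmb7, which cuts after basic residues, had 218, 131 and 199 FPKM in the naive, Treg and un-injected lymph node, and 203, 138 and 245 FPKM in the naive, Treg and un-injected spleen. As deposited, the Treg library was the lowest in both tissues for all 3 genes. On that scale the naive library was the highest in the lymph node and the un-injected library the highest in the spleen. With libraries set to a common sum of FPKM, Psmb6 was above un-injected after Treg in the lymph node, at a log2 ratio of 0.27. In the spleen Psmb6 and Psmb7 were then above un-injected after naive T cells, at 0.12 and 0.13, and Psmb5 was at -0.0025. Psmb7 overlaps Nek6 in the annotation, and all 3 genes have named pseudogenes (Psmb5-ps, Psmb6-ps, Psmb6-ps2 and Psmb7-ps2), with which reads could have been shared in the authors' counting.

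Promoters are shown for 6 subunits that the results below turn on. They include 2 cutting subunits, the chaperone Psmd10 that stands apart from the rest, and Psmb3 with the lowest ratio of Treg to un-injected in the spleen. The others are Psmd2, with the narrowest range on the deposited scale, and the lid subunit Psmd6, with the highest spleen ratio of naive to un-injected. Each line gives 100 bases from just upstream of the annotated start, 5′ to 3′ on the gene's strand, from RefSeq (GRCm38.p6). Capitals mark matches, on either strand, to TGACNNNGC (the core of the antioxidant response element, bound by Nfe2l1, a known activator of proteasome genes) and to CCAAT, the box bound by the trimeric factor NF-Y. They also mark CCGGAA, the core of sites for the ETS family of transcription factors, and GGGCGG, the GC box bound by factors of the Sp family.
Psmb5 (chr14:54618023-54618122, minus strand): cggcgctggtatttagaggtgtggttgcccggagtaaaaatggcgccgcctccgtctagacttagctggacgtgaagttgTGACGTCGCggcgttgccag
Psmb6 (chr11:70525257-70525356, plus strand): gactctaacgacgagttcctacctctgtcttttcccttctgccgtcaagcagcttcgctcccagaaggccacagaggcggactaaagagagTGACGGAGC
Psmd10 (chrX:140956729-140956828, minus strand): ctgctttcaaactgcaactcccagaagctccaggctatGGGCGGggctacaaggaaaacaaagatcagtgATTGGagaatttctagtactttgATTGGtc
Psmb3 (chr11:97703299-97703398, plus strand): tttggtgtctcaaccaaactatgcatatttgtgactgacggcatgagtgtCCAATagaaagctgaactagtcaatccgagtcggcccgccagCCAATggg
Psmd2 (chr16:20651552-20651651, plus strand): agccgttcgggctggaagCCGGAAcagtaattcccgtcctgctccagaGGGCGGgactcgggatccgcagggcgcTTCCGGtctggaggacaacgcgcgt
Psmd6 (chr14:14120985-14121084, minus strand): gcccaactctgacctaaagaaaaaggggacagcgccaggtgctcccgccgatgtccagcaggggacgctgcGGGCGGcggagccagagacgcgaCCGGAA

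Over the longer windows of 250 bases before to 50 after the start, RefSeq held promoters for 29 of the 36 subunit genes. CCGGAA was found in 15 of these 29 genes (51.7%), against 16.7% of 27025 genes with a promoter. GGGCGG was found in 18 of 29 (62.1%), against 38.2% of all genes. TGACNNNGC was found in 5 of 29 (17.2%, Psmb5, Psmb6, Psmc6, Psmd12 and Psmd9), against 14% of all genes, and CCAAT in 12 of 29 (41.4%), against 41.1%. Of 12 motifs searched the other eight were GCCAT (58.6% of subunit genes, 44.2% of all), AAGATGGC (10.3%, 3.19%), ATGGCGGC (6.9%, 2.6%), TGANTCAGC (3.45%, 1.37%), TGANTCA (6.9%, 8.97%), TGACGTCA (0%, 2.03%), TGACGTC (3.45%, 3.6%) and CACGTG (6.9%, 8.09%). The short motifs overlap the longer ones that contain them, all genes include those not expressed here, and a match describes these letters only.

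The first comparison sets the lymph node after naive T cell transfer against the un-injected lymph node. Of 34 subunits 31 had the higher value after naive T cells, and 3 the lower, against 49.2% and 50.3% of the 10818 genes that passed the filter. The share higher was 56.4% of the 3742 genes with a mean of at least 20 FPKM, which are closer to the subunits in level. The median log2 ratio of the subunits was 0.54, or 1.46-fold, against -0.00 for all genes and 0.15 for the genes of high level. Past 1.5-fold, 14 subunits were higher and 1 was lower, against 27.7% and 27.3% of all genes and 32.6% and 21.2% of genes of high level. The core had a median of 0.68 and the cap without its chaperones 0.50. With libraries set to a common sum of FPKM, the subunit median was 0.66, beside 0.09 for all genes, and 31 of 34 were higher, against 54.4% of all genes.

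The same libraries differed in markers of other cells and of cell state, and in bulk RNA fewer cells of a type and less RNA per cell cannot be told apart. The 11 monocyte markers summed to 7204, 1070 and 153 FPKM in the naive, Treg and un-injected lymph node and 1947, 1719 and 2650.0 FPKM in the naive, Treg and un-injected spleen, and all 11 were 1.5-fold higher in naive than in un-injected lymph node. In the lymph node monocyte markers and subunits were thus both highest after naive T cells. The 12 maturation genes summed to 3412, 7353 and 17710 FPKM in the naive, Treg and un-injected lymph node and 1980, 1655 and 1885 FPKM in the naive, Treg and un-injected spleen. Their part in the subunits' values was not tested.

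The highest ratios were those of core subunits. Psma4, of the alpha ring (chr9:54950790-54958030, plus strand), had 286, 117 and 108 FPKM in the naive, Treg and un-injected lymph node, a log2 ratio of 1.40 for naive over un-injected. In the spleen it had 177, 135 and 212 FPKM in the naive, Treg and un-injected libraries, so naive lymph node was the highest of the 6. AY074887 overlaps Psma4 in the annotation. Psmb2, a structural beta subunit, had 261, 162 and 109 FPKM in the naive, Treg and un-injected lymph node, and 209, 175 and 226 FPKM in the naive, Treg and un-injected spleen, with a lymph node ratio of 1.25. In both genes un-injected lymph node was the lowest of the 6.

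The 3 subunits that were lower after naive T cells in the lymph node were Psmd10, Psmb1 and Psmd4. Psmd10, also known as gankyrin, a base chaperone that is overproduced in liver cancer (chrX:140948429-140956728, minus strand), had 26.1, 19.6 and 56.0 FPKM in the naive, Treg and un-injected lymph node, and 19.2, 14.2 and 22.8 FPKM in the naive, Treg and un-injected spleen. The value of un-injected lymph node was far above the other five, and the lymph node log2 ratio of naive over un-injected was -1.09. Psmb1, a structural beta subunit, had 203, 171 and 247 FPKM in the naive, Treg and un-injected lymph node and 221, 218 and 376 FPKM in the naive, Treg and un-injected spleen, with a lymph node ratio of -0.28. Psmd4 had 114, 101 and 132 FPKM in the naive, Treg and un-injected lymph node and 84.1, 78.6 and 106 FPKM in the naive, Treg and un-injected spleen, with a lymph node ratio of -0.21.

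In the spleen the same comparison ran the other way for most subunits. Of 34 subunits 5 were above the un-injected library after naive T cells and 29 below it, against 46.6% and 52.7% of all genes, and the median log2 ratio was -0.23 (0.854-fold), against -0.04 for all genes and -0.13 for genes of high level. No subunit was 1.5-fold higher and 2 were 1.5-fold lower, against 13.5% and 16.1% of all genes. The direction turned on the common sum, with a median of 0.16, beside 0.31 for all genes, and 28 of 34 higher, against 72.1% of all genes. The 10 neutrophil markers summed to 838 FPKM in the un-injected spleen library and to between 2.90 and 24.2 FPKM in the others. Their part in the subunits' values was not tested. The 5 that were above were the ATPases Psmc2, Psmc5 and Psmc6 and the lid subunits Psmd6 and Psmd7. Psmd6 had 59.99, 35.7 and 43.7 FPKM in the naive, Treg and un-injected lymph node and 64.6, 47.0 and 52.3 FPKM in the naive, Treg and un-injected spleen, where its log2 ratio of naive over un-injected was 0.30. Psmd7 had 53.3, 32.9 and 49.0 FPKM in the naive, Treg and un-injected lymph node and 36.8, 26.05 and 31.1 FPKM in the naive, Treg and un-injected spleen, where its ratio was 0.24.

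On the deposited scale these 5 were the subunits of the 34 above the un-injected library in both tissues after naive T cells, against 21.5% of all genes. Of the rest, 26 were above it in the lymph node and below it in the spleen, against 27.6% of all genes and 35.5% of genes of high level. With the common sum 26 were above it in both tissues and 5 in the lymph node alone, against 39.7% and 14.6% of all genes. Psmd5, a base chaperone, was on the deposited scale the 1 subunit past 1.5-fold in opposite ways, against 9.98% of all genes, and 0 passed it in the same direction in both, against 8.22%. It had 8.24, 7.23 and 4.43 FPKM in the naive, Treg and un-injected lymph node and 6.22, 9.44 and 11.0 FPKM in the naive, Treg and un-injected spleen, with log2 ratios of naive over un-injected of 0.83 in the lymph node and -0.77 in the spleen. These became 0.94 and -0.40 on the common sum, and 0 subunits were then past 1.5-fold in opposite ways, against 10.4% of all genes. The level of Psmd5 is low and Cutal overlaps it in the annotation. The difference between the tissues was not tested.

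The next comparison asks what followed the transfer of Treg. In the spleen all 34 subunits were below the un-injected library and 0 above it, against 52.2% and 46.8% of all genes, with a median log2 ratio of -0.53 (0.693-fold), against -0.04 for all genes and -0.18 for genes of high level. Past 1.5-fold 14 were lower, against 17.3% of all genes, and 0 higher, against 14.4%. Of genes of high level 18.7% were lower and 7.06% higher past 1.5-fold. The common sum gave a spleen median of -0.14, beside 0.31 for all genes, with 21 of 34 lower, against 29.3% of all genes, and 1 lower past 1.5-fold, against 6.92%. In the lymph node 29 were below the un-injected library and 5 above it, against 51% and 48.4% of all genes, with a median of -0.22 (0.860-fold), against -0.02 for all genes and -0.08 for genes of high level. Past 1.5-fold in the lymph node, 1 was higher and 2 were lower, against 21.1% and 18.2% of all genes. The lymph node median turned to 0.08 on the common sum, beside 0.25 for all genes, with 21 of 34 higher, against 65.6% of all genes. On both scales and in both tissues the subunit median after Treg lay below the median of all genes. The 15 cell cycle genes summed to 202, 196 and 159.5 FPKM in the naive, Treg and un-injected lymph node and 537, 363 and 585.5 FPKM in the naive, Treg and un-injected spleen, where 11 were 1.5-fold lower after Treg than in un-injected mice. In the lymph node 10 of the 15 were 1.5-fold higher after Treg and 1 lower, with a median log2 ratio of 0.99. Their part in the subunits' values was not tested.

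Psmb3, a structural beta subunit, had the lowest spleen ratio of Treg to un-injected, at -0.98. Its values were 268, 167 and 168 FPKM in the naive, Treg and un-injected lymph node and 241, 181 and 357 FPKM in the naive, Treg and un-injected spleen. As deposited, the un-injected spleen library thus stood above all the others for this gene. Psmb7 was next, at -0.83 in the spleen and -0.60 in the lymph node. Psmd10 had the lowest lymph node ratio, at -1.49, and was at -0.67 in the spleen. Psmb7 and Psmd10 were, as deposited, the 2 subunits 1.5-fold lower after Treg in both tissues, and 8.62% of all genes passed 1.5-fold in the same direction in both. On the common sum Psmb7 was at -0.31 in the lymph node and -0.44 in the spleen and Psmd10 at -1.20 and -0.29, so 0 subunits were, against 12.9% of all genes. In opposite directions 0 subunits did, against 6.17% of all genes. At the other end, the highest lymph node ratios were those of Psmd5, at 0.65, and Psmb2, at 0.57. In the spleen they were those of Psmd2 and Psmd6. Psmd2, a base subunit that binds ubiquitin-like domains, had 115, 78.5 and 92.9 FPKM in the naive, Treg and un-injected lymph node and 78.5, 79.8 and 82.9 FPKM in the naive, Treg and un-injected spleen. As deposited, its spleen ratio of Treg to un-injected was -0.06 and its 3 spleen values lay close together. The spleen ratio of Psmd6 was -0.16. On the common sum Psmd2 in the spleen was above un-injected, at 0.33 after Treg and 0.31 after naive T cells. Psmd6 was then at 0.23 after Treg in the spleen.

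On the deposited scale Treg values were below the un-injected ones in both tissues for 29 of 34 subunits, against 28.1% of all genes and 38.9% of genes of high level. The exceptions were Psma4, Psmb2, Psmd3, Psmd5 and Psmd9. With the common sum 10 of 34 were below in both, against 12.2% of all genes. The comparisons of naive and of Treg with un-injected share the un-injected library of each tissue, so their values stand side by side and are not independent.

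**Figure D2:**
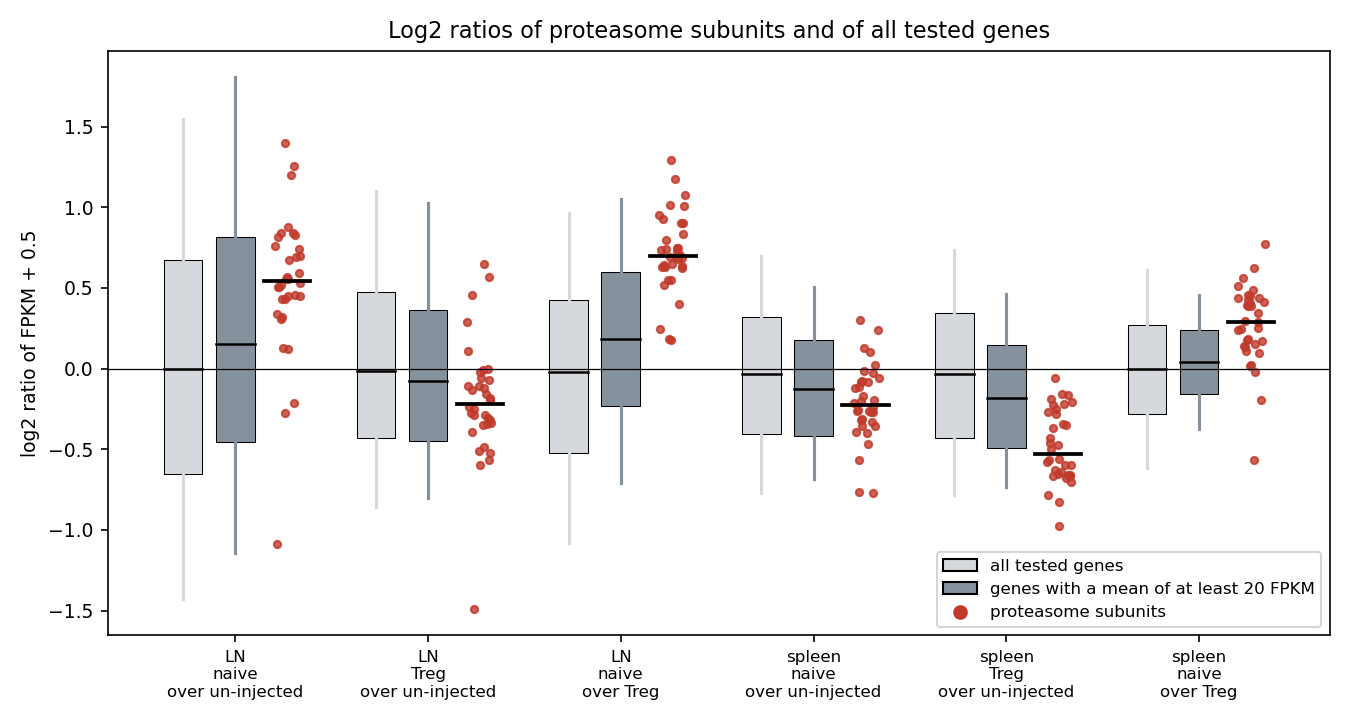
Log2 ratio of FPKM + 0.5 between 2 libraries of a tissue, for the 34 subunits (red points, bar at the median), all 10818 tested genes (light boxes) and the 3742 genes with a mean of at least 20 FPKM (dark boxes); boxes span the quartiles with the median inside, and whiskers end at the tenth and the ninetieth percentile. The subunit medians are 0.54, -0.22 and 0.70 in the lymph node comparisons and -0.23, -0.53 and 0.29 in the spleen comparisons.

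The direct comparison of the transferred cell types asks whether naive T cells and Treg left dendritic cells in different states. In the lymph node all 34 subunits were higher after naive T cells than after Treg and 0 lower, against 48.5% and 51.2% of all genes; the share higher was 62.5% of genes of high level. The median log2 ratio was 0.70 (1.62-fold), against -0.02 for all genes and 0.19 for genes of high level. Past 1.5-fold 27 subunits were higher and 0 lower, against 19.3% and 22.6% of all genes and 25.6% and 12.5% of genes of high level. In the spleen 31 of 34 were higher after naive T cells and 3 lower, against 49% and 49.9% of all genes, with a median of 0.29 (1.22-fold), against 0.00 for all genes and 0.04 for genes of high level. Past 1.5-fold in the spleen there were 2 higher and 0 lower, against 10.6% and 11% of all genes. On the common sum 34 of 34 were higher in the lymph node and 31 of 34 in the spleen, against 39.1% and 49.4% of all genes, with medians of 0.53 and 0.29, beside -0.18 and 0.00 for all genes. Past 1.5-fold there were then 12 higher in the lymph node and 2 in the spleen, against 14.7% and 10.7% of all genes.

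Naive was above Treg in both tissues for 31 of 34 subunits, against 27% of all genes and 39.1% of genes of high level (31 of 34 on the common sum, against 22.7% of all genes), and these 2 comparisons share no library. The exceptions were Psmc1, Psmd2 and Psmd5, whose spleen log2 ratios of naive to Treg were -0.20, -0.02 and -0.56. Psmc1, an ATPase of the base, had 85.5, 54.7 and 60.2 FPKM in the naive, Treg and un-injected lymph node and 53.0, 60.9 and 73.4 FPKM in the naive, Treg and un-injected spleen. On the deposited scale the Treg library was the lowest of the 3 states in both tissues for 27 of 34 subunits, against 11.2% of all genes and 19% of genes of high level. Under the common sum it was for 10 of 34, against 4.48% of all genes.

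Psmc5, an ATPase, was on the deposited scale the 1 subunit 1.5-fold higher after naive T cells than after Treg in both tissues, against 3.44% of all genes. It had 92.7, 59.9 and 73.1 FPKM in the naive, Treg and un-injected lymph node and 94.2, 55.0 and 87.6 FPKM in the naive, Treg and un-injected spleen, and as deposited both Treg values lay below all the others. Its log2 ratio of naive to Treg was 0.63 in the lymph node and 0.77 in the spleen, the highest of any subunit there. These were 0.45 and 0.77 on the common sum, where 0 subunits passed 1.5-fold in both tissues, against 3.03% of all genes. Psmc2, another ATPase, followed in the spleen at 0.62, with 84.5, 58.7 and 58.7 FPKM in the naive, Treg and un-injected lymph node and 70.1, 45.4 and 68.9 FPKM in the naive, Treg and un-injected spleen. The highest lymph node ratios of naive to Treg were those of the alpha subunits Psma4, at 1.29, and Psma5, at 1.17. Psma5 had 245, 108 and 152 FPKM in the naive, Treg and un-injected lymph node and 139, 102 and 144 FPKM in the naive, Treg and un-injected spleen. The lowest lymph node ratios of naive to Treg were those of Psmd5 and Psmd4, both at 0.18.

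**Figure D3:**
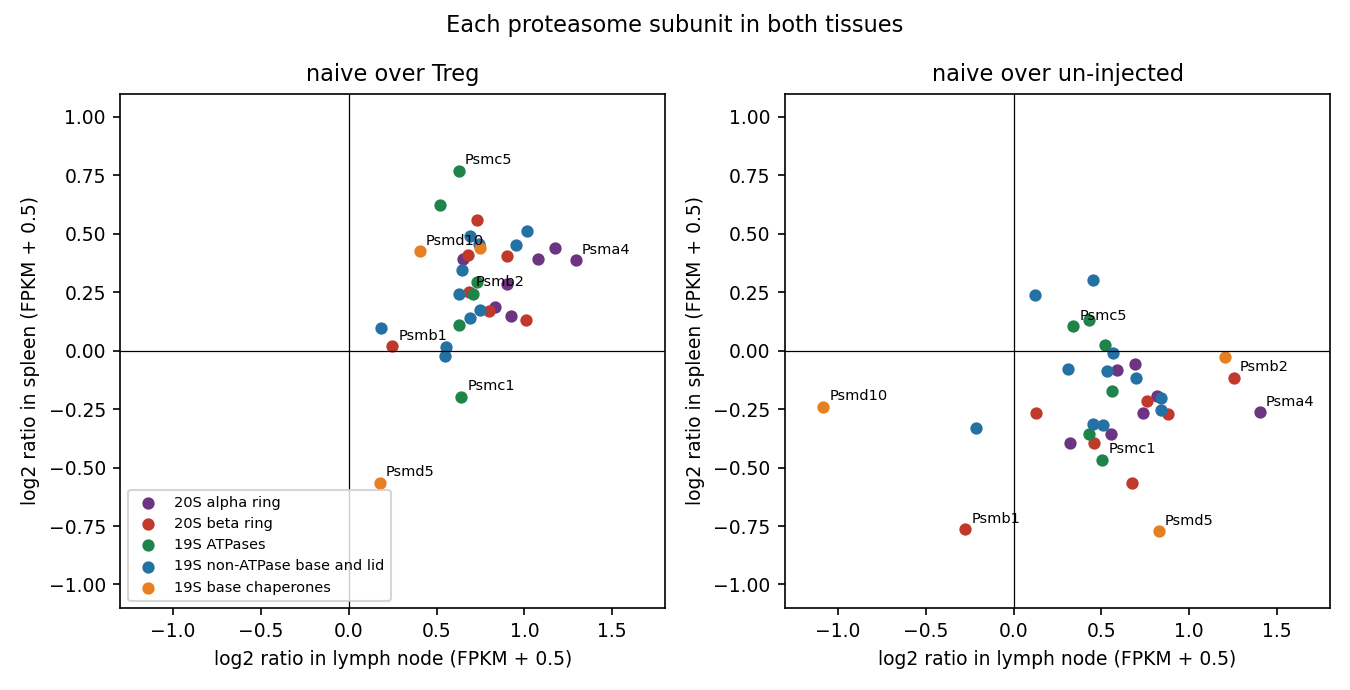
Log2 ratio of FPKM + 0.5 in lymph node (horizontal axis) and spleen (vertical axis) for each of the 34 subunits, coloured by role, for naive over Treg (left) and naive over un-injected (right). On the left 31 of 34 points lie in the upper right quadrant; on the right 26 lie in the lower right quadrant and 5 in the upper right, on the deposited scale; with a common sum 31 subunits were higher in the lymph node and 28 in the spleen for naive over un-injected.

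The tissues were also compared within each state. In the un-injected mice 27 of 34 subunits were lower in the lymph node than in the spleen and 7 were higher, against 51.1% and 48.6% of all genes, with a median log2 ratio of lymph node to spleen of -0.53. Past 1.5-fold 2 were higher and 14 lower, against 30.7% and 32.5% of all genes, and 39.8% of genes of high level were lower past 1.5-fold. Psmd10, at 1.28, was the highest of these ratios and Psmd9, another base chaperone, at -1.43, the lowest. The level of Psmd9 is low, at 3.97 FPKM in un-injected lymph node and 11.6 FPKM in un-injected spleen, and Hpd overlaps it in the annotation. After naive T cells 29 were higher in the lymph node and 5 lower, against 52.8% and 46.9% of all genes, with a median of 0.30. Past 1.5-fold 5 were higher and 0 lower, against 22.2% and 18.7%. After Treg 9 were higher and 25 lower, against 49.7% and 50% of all genes, with a median of -0.15. Past 1.5-fold 0 were higher and 2 lower, against 22.9% and 19.4%. Genes of high level had medians of -0.31 in un-injected mice, 0.07 after naive T cells and -0.16 after Treg. The common sum gave medians of -0.18 in un-injected mice, 0.38 after naive T cells and 0.10 after Treg, so the last changed sign, beside 0.27, 0.11 and 0.23 for all genes. Subunits higher and lower in the lymph node were then 15 and 19 in un-injected mice, against 59.1% and 40.6% of all genes. After naive T cells they were 31 and 3, against 57.0% and 42.7%, and after Treg 22 and 12, against 63.9% and 35.8%. Past 1.5-fold lower in un-injected mice there were 6, against 23.2% of all genes.

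The test across libraries was limma's moderated test in an additive model of state and tissue, with Benjamini-Hochberg adjustment over all 10818 genes. It has 2 residual degrees of freedom, so its error measures how far the tissues agree, and with no replicates it says nothing of the spread between mice. No subunit was called at an adjusted p of 0.05 for naive against un-injected, Treg against un-injected or naive against Treg, and neither was any other gene (0% of all genes). The lowest adjusted p of a subunit was 0.675, 0.938 and 0.963 in these comparisons. For lymph node against spleen 0.684% of all genes were called, 48 higher and 26 lower, and no subunit, with a lowest adjusted p of 0.196. This number of genes, 74 in all, was 1471 without the naive lymph node library, 1449 without the naive spleen library and 0 without either Treg library. For naive against un-injected 382 genes were called without the naive spleen library and 188 without the un-injected spleen library.

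At an unadjusted limma p under 0.05, no subunit passed for naive against un-injected, where 372 genes were higher and 413 lower. For Treg against un-injected 3 subunits passed, all lower, among 207 genes higher and 301 lower. They were Psmd10, with a model difference of -1.06 ± 0.34 (SE, log2 of FPKM + 1), Psmb7 with -0.71 ± 0.26 and Psmb1 with -0.65 ± 0.26. For naive against Treg 2 subunits passed, both higher, among 221 genes higher and 149 lower. These were Psma5, with 0.80 ± 0.31, and Psmc5, with 0.69 ± 0.27. For lymph node against spleen Psmd10 passed, with 0.71 ± 0.28, among 1426 genes higher and 1312 lower. The median model difference of the subunits was 0.22 for naive against un-injected, -0.34 for Treg against un-injected and 0.51 for naive against Treg. Without the naive lymph node library these were -0.12, -0.34 and 0.18, and without un-injected lymph node the median for naive against un-injected was -0.05, so its sign rested on these 2 libraries. Without the un-injected spleen library the median for Treg against un-injected was -0.07. The passes at an unadjusted p rested on single libraries, the scale, the filter and the variance prior. With a filter of 5 FPKM, or with no intensity trend, 0 subunits passed for naive against Treg. Other settings gave more passes there, 5 with no filter and 3 with a pseudocount of 0.1 or with median-ratio factors. Leaving out some single libraries also added passes, for naive against Treg and for naive against un-injected. With no intensity trend Psmd10 alone passed for Treg against un-injected. For lymph node against spleen Psmd10 did not pass with no intensity trend or with libraries scaled by median-ratio factors. Of the 3 for Treg against un-injected, 0 passed without the Treg lymph node library, without the Treg spleen library or on the common sum. Of the 2 for naive against Treg, 0 passed without the naive lymph node library or without either Treg library, and Psma5 alone on the common sum. Without naive lymph node the difference of Psma5 was 0.43, and without un-injected lymph node that of Psmd10 for Treg against un-injected was -0.64. Psmd10 did not pass for lymph node against spleen without either un-injected or either Treg library.

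The authors' deposited tables of single pairs of libraries mark loci past 2-fold with a p-value of at most 0.01. They mark no subunit in any of the 6 tables, against 1.29%, 0.264% and 0.433% of loci for naive against un-injected, Treg against un-injected and naive against Treg in the lymph node, and 0.0364%, 0.0546% and 0.0273% in the spleen. The lowest p-value of a subunit in the authors' deposited tables was 0.110, for Psma4 in the lymph node libraries of naive and un-injected mice.

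The FPKM of a library summed to 622680, 552580 and 677612 in the naive, Treg and un-injected lymph node and 655903, 657560 and 861260 in the naive, Treg and un-injected spleen, which is what the common sum evens out. The most uneven total was that of the un-injected spleen.

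The range of the subunits over the 6 libraries is given here as a description, on the deposited scale. It depends on the scale and was not worked out on the common sum. The ratio of a subunit's highest to its lowest library had a median of 1.88, and lay between 1.47 (Psmd2) and 3.95 (Psmd10), against a median of 2.64 over 10130 tested genes above 0 in all libraries and 2.30 over the 3730 of these with a mean of at least 20 FPKM. Without Psmd10 the widest was Psmd9, a gene of low level, at 2.92. In each of the 6 comparisons within a tissue the subunits also lay closer together than other genes, with a standard deviation of log2 ratios of 0.25 over subunits, against 0.95 over all genes and 0.88 over genes of high level, for naive against Treg in the lymph node. In the spleen it was 0.25 over subunits, against 0.59 and 0.42.

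The immunoproteasome genes were set against the constitutive genes whose place they take. Psmb8 had 823, 474 and 719 FPKM in the naive, Treg and un-injected lymph node and 460.0, 359 and 573 FPKM in the naive, Treg and un-injected spleen. Its ratio to Psmb5, per length, was 7.09, 7.14 and 8.51 in the naive, Treg and un-injected lymph node and 4.11, 3.61 and 3.89 in the naive, Treg and un-injected spleen, so the 3 lymph node libraries lay above the 3 spleen libraries. Psmb9 had 454, 205 and 345 FPKM in the naive, Treg and un-injected lymph node and 360.0, 242 and 404 FPKM in the naive, Treg and un-injected spleen. Its ratio to Psmb6 was 1.59, 1.34 and 2.22 in the naive, Treg and un-injected lymph node and 1.496, 1.33 and 1.39 in the naive, Treg and un-injected spleen, and the tissues overlapped. Psmb10 had 448, 148 and 223 FPKM in the naive, Treg and un-injected lymph node and 159, 121 and 154 FPKM in the naive, Treg and un-injected spleen. Its ratio to Psmb7 was 2.06, 1.13 and 1.12 in the naive, Treg and un-injected lymph node and 0.780, 0.880 and 0.630 in the naive, Treg and un-injected spleen. The naive lymph node library stood above the other five, and all 3 spleen ratios were below 1.

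**Figure D4:**
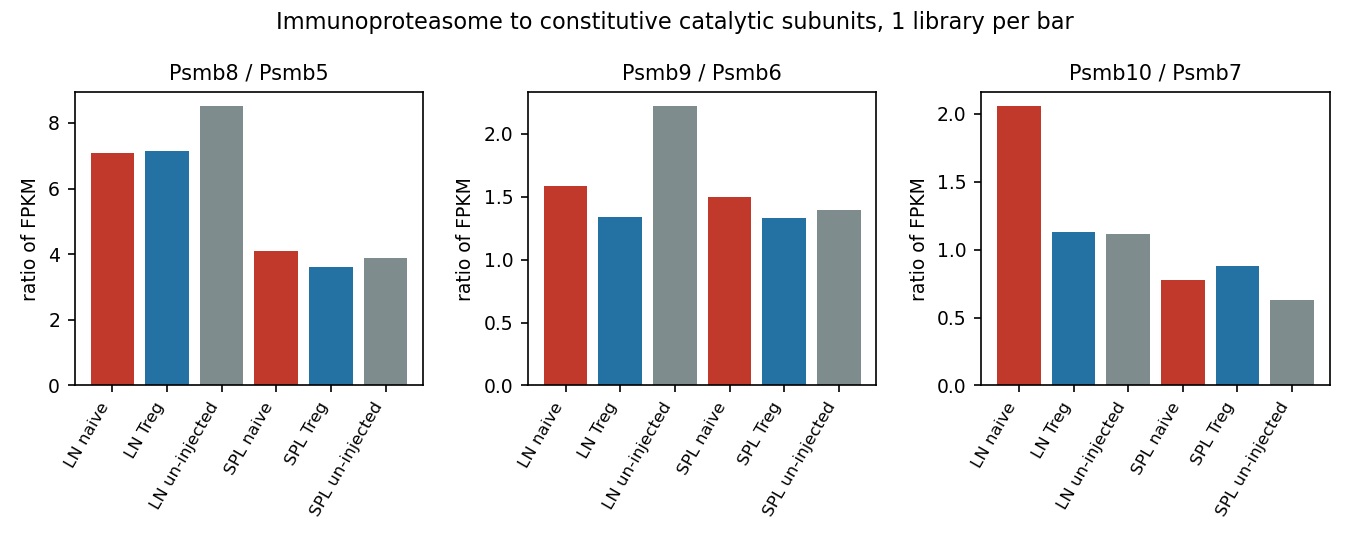
Ratio of the FPKM of each immunoproteasome subunit to that of its constitutive counterpart in each library (1 bar is 1 library, axes start at 0). Psmb8 to Psmb5 is 7.09 to 8.51 in lymph node and 3.61 to 4.11 in spleen, and Psmb10 to Psmb7 is 2.06 in the naive lymph node library and 0.630 to 1.13 in the other five.

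The rest of the pathway was read from lists with 46 genes in the table, of which limma called 0 in either direction for naive against un-injected, Treg against un-injected or naive against Treg. At an unadjusted limma p under 0.05, 1 of the 46 was higher and 2 were lower for naive against un-injected, 1 was higher and 6 were lower for Treg against un-injected, and 3 were higher for naive against Treg. Of all genes 3.44% were higher and 3.82% lower for naive against un-injected, 1.91% higher and 2.78% lower for Treg against un-injected, and 2.04% higher for naive against Treg. Psmb8 and Psmb9 were, as deposited, 1.5-fold lower after Treg than in un-injected mice in both tissues, with log2 ratios of -0.60 and -0.75 in the lymph node and -0.67 and -0.74 in the spleen. So were the interferon-induced activator subunits Psme1 and Psme2 of the 5 activators and inhibitors. Psme2 had 1272, 732 and 1634 FPKM in the naive, Treg and un-injected lymph node and 548, 324 and 602 FPKM in the naive, Treg and un-injected spleen, and was also 1.5-fold higher after naive T cells than after Treg in both. Psme1 had 881, 609.9 and 1183 FPKM in the naive, Treg and un-injected lymph node and 701, 549.9 and 907 FPKM in the naive, Treg and un-injected spleen. None of these 4 genes was 1.5-fold lower after Treg in both tissues on the common sum. The log2 ratios of Treg to un-injected were then -0.31 and -0.28 for Psmb8 in the lymph node and spleen, -0.46 and -0.35 for Psmb9, -0.66 and -0.33 for Psme1 and -0.86 and -0.50 for Psme2. The higher level of Psme2 after naive T cells than after Treg passed 1.5-fold in both on the common sum too, at 0.62 and 0.76.

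The chaperones that build the 20S core form a list of 5. Of these, Psmg4 was 1.5-fold lower after naive T cells in both tissues, at log2 ratios of -1.46 in the lymph node and -0.71 in the spleen. After Treg it was lower too, at -0.92 and -0.58, just short of 1.5-fold in the spleen. Psmg2 was 1.5-fold higher after Treg in both, at 0.82 and 0.74. After naive T cells it was higher too, at 0.51 and 0.62, short of 1.5-fold in the lymph node. On the common sum Psmg4 was at -1.34 and -0.32 after naive T cells and passed in the lymph node alone. Psmg2 then passed in both tissues after either transfer, at 1.103 and 1.11 after Treg and 0.63 and 0.99 after naive T cells. Their summed level was 468, 401 and 478 FPKM in the naive, Treg and un-injected lymph node and 376, 315 and 598 FPKM in the naive, Treg and un-injected spleen. Of 7 partners of the cap in the table, among them its deubiquitinases and ubiquitin receptors, none passed 1.5-fold the same way in both tissues. Of 6 cofactors of the unfoldase p97, likewise none did.

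Among 9 genes that govern proteasome gene expression, Ddi2, the protease that activates Nfe2l1, was 1.5-fold higher after naive T cells in both tissues. It had 30.1, 19.1 and 15.5 FPKM in the naive, Treg and un-injected lymph node and 26.3, 24.9 and 15.6 FPKM in the naive, Treg and un-injected spleen, and passed in both on the common sum too. Nfyb, a subunit of the factor that binds CCAAT boxes, was 1.5-fold lower after Treg in both, at -0.77 in the lymph node and -0.66 in the spleen. On the common sum it passed in neither, at -0.49 and -0.29. As deposited it was lower after naive T cells too, at -0.76 in the lymph node and -0.35 in the spleen. Nfe2l1 itself, named after its values were seen, had 43.5, 64.7 and 95.4 FPKM in the naive, Treg and un-injected lymph node and 15.3, 16.8 and 17.5 FPKM in the naive, Treg and un-injected spleen. Its lowest lymph node library was the naive one. The part of Nfe2l1 in the subunits' values was not tested. Of 11 ubiquitin genes and shuttle factors, the stress-inducible ubiquitin gene Ubb was 1.5-fold lower after Treg in both tissues, at -0.77 in the lymph node and -0.73 in the spleen. On the common sum it passed in neither, at -0.47 and -0.34. As deposited Ubb was lower after naive T cells too, at -0.42 in the lymph node and -0.54 in the spleen.

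The labelled cell type was checked by its markers. All 5 dendritic cell markers were above 0 in every library, with summed levels of 24970, 24160 and 12260 FPKM in the naive, Treg and un-injected lymph node and 34040, 36930 and 41500 FPKM in the naive, Treg and un-injected spleen. Most of these sums came from the MHC class II genes Cd74 and H2-Ab1, which other antigen-presenting cells express too. Flt3, a growth factor receptor of dendritic cells, had 56.6, 204 and 183 FPKM in the naive, Treg and un-injected lymph node and 146, 221 and 173 FPKM in the naive, Treg and un-injected spleen. Zbtb46, which encodes a regulator found in conventional dendritic cells, had 17.1, 30.8 and 49.8 FPKM in the naive, Treg and un-injected lymph node and 18.003, 15.2 and 13.5 FPKM in the naive, Treg and un-injected spleen. Itgax, which encodes CD11c, had 196, 134 and 39.7 FPKM in the naive, Treg and un-injected lymph node and 377, 385 and 305 FPKM in the naive, Treg and un-injected spleen. In the naive lymph node library, where monocyte markers and subunits were highest, Flt3 was lower than in the other five, and the log2 ratios of naive to un-injected there were -1.68 for Flt3, -1.51 for Zbtb46 and 2.29 for Itgax. Their part in the subunits' values was not tested. Markers of further lineages were summed beside the monocyte and neutrophil markers given above. Macrophage markers summed to between 190.1 and 480 FPKM, with the most in the un-injected spleen. Markers of natural killer and innate lymphoid cells summed to between 67.6 and 241 FPKM. In every library most of that sum came from Klrd1, at 50.1 to 219 FPKM. T cell markers, highest in un-injected lymph node, summed to between 14.01 and 167 FPKM. Most of the sum in un-injected lymph node came from Tcf7, at 93.7 FPKM, and Il7r, at 68.7 FPKM. Cd3e, a chain of the T cell receptor complex, was listed at 0 in 5 libraries and at 0.584 FPKM in that library. Cd3d, another chain, had 0.548 FPKM there, 0.426 FPKM in naive spleen and 0.343 FPKM in un-injected spleen. Cd3g had 1.37 FPKM in Treg lymph node, and both were listed at 0 elsewhere. B and plasma cell markers summed to between 2.33 and 20.01 FPKM and stromal markers to between 9.92 and 31.5 FPKM.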

How the data were processed

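The authors deposited 1 table of gene values for 6 libraries of sorted dendritic cells. The values the authors deposited are scaled by gene length and library and were read as FPKM; the header names no unit, but they are fractional and sum to a different total per library. The tools and builds named in the submitters' processing notes are RSEM, edgeR 3.16.5, mm10 and GRCm38.p4, without the step each served. Another 6 deposited tables, of pairs of libraries, hold a p-value per locus, by an unstated tool. The files hold no counts and the sequencing depth is unknown, so no counting interval is given; low values are the least precise.

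Subunits were taken by symbol, and coordinates from GENCODE M21 (GRCm38); all 36 Ensembl identifiers matched. The values of 38 symbols on several lines, none a subunit, were summed. Genes with at least 1 FPKM in at least 2 libraries (10818) were tested with limma 3.58.1 (R 4.3.3, intensity trend, log2(FPKM + 1)) in an additive model of state and tissue, with Benjamini-Hochberg adjustment at 0.05. The procedure was tested on simulated data. Ratios of 2 libraries used log2(FPKM + 0.5), with no test; they understate the change of low genes, and folds are on that scale. Alternatives varied the pseudocount, filter, scaling, variance prior, model terms and libraries used.

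Shown in every library are the cutting subunits, those under the filter and, per comparison within a tissue, the 2 subunits with the highest and the 2 with the lowest ratio that reached 5 FPKM; further subunits are named where they passed 1.5-fold in both tissues or were at either end of their role by level. Genes of other lists are named where they passed 1.5-fold the same way in both tissues. The values of 1 gene of these lists are not reported here. The subunits and the gene lists were chosen with earlier results of these data known.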

Additional observations from a re-analysis of the deposited data

Results flagged for a closer look

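The median log2 ratio of naive over un-injected among the 34 subunits lay on opposite sides of 0 in the tissues, at 0.54 in the lymph node and -0.23 in the spleen. With 1 library per group the difference between the tissues was not tested, and on the common sum the spleen median was 0.16. Psmd5 was past 1.5-fold in opposite ways, with a log2 ratio of naive over un-injected of 0.83 in the lymph node and -0.77 in the spleen, also not tested; its level was 4.43 to 11.0 FPKM. On the common sum its ratios were 0.94 and -0.40, so the spleen value did not pass 1.5-fold.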

How the results depend on the processing

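No paired analysis was possible because the labels give no replicate numbers and each group holds 1 library. In every model setting run, with each library left out in turn as well (0 to 0), limma called 0 of the subunits. The pseudocount, the filter, median-ratio factors and leaving out Psmd10 (an alternative chosen after seeing the data, as were medians relative to other genes and the medians of the model) kept the sign of every subunit median. The common sum changed it in 3 comparisons of 2 libraries: Treg over un-injected in the lymph node was 0.076, naive over un-injected in the spleen 0.16 and Treg lymph node over spleen 0.10. It moved Treg over un-injected in the spleen to -0.14. Relative to genes with a mean of at least 20 FPKM, Treg lymph node over spleen was 0.015. Counts past 1.5-fold that it moved by more than 1.5 times were, for naive over Treg in the lymph node, 12 higher in place of 27, for Treg over un-injected in the spleen 1 lower in place of 14, and for un-injected lymph node over spleen 6 lower in place of 14. Counts of 5 or fewer moved as well, such as naive over un-injected in the spleen with 2 higher and 0 lower in place of 0 and 2. In the model the common sum gave a median of -0.0058 for Treg against un-injected and 0.065 for lymph node against spleen. Leaving out each library in turn, the model median ranged between -0.12 (without naive lymph node) and 0.48 (without naive spleen) for naive against un-injected, between -0.60 (without un-injected lymph node) and -0.067 (without un-injected spleen) for Treg against un-injected, between 0.18 (without naive lymph node) and 0.75 (without naive spleen) for naive against Treg and between -0.34 and 0.049 for lymph node against spleen, where it was 0.049 without either un-injected library. For these changes the cause was not tested. The 6 model differences given at an unadjusted p kept their sign without any 1 library. Which subunits passed at that p varied with the library left out. Over all genes, the calls for lymph node against spleen numbered 74, but 23 on the common sum, 38 with a pseudocount of 0.1, 22 with a filter of 5 FPKM, 0 with no filter, 2 with no intensity trend and 0 to 1471 without 1 library. Without 1 library, naive against un-injected had up to 382 calls, Treg against un-injected up to 17 and naive against Treg up to 104. Each group has 1 library and depth is unknown, so neither animal nor counting error can be given.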
